A study of Rattus norvegicus with 6 samples.

Results

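The genes described here encode the machinery that brings proteins into mitochondria, shapes the inner membrane and degrades mitochondrial proteins. They were taken by name from the deposited table: translocase subunits of the outer membrane (Tomm) and inner membrane (Timm), the assembly factor Samm50, the import motor parts Pam16, Grpel1 and Grpel2, the presequence protease subunits Pmpca and Pmpcb, the numbered Chchd genes, the contact site genes Immt, Apoo, Apool, Micos10 and Micos13, and the protease genes Lonp1, Clpp, Clpx and Afg3l2. Of the 17273 genes in the table, 44 carry such a name, and all 44 passed the filter on low counts that left 13747 genes for testing. The smallest count of any of them in a library was 17. RNA was sequenced from nucleus pulposus cells, the cells of the soft core of the intervertebral disc, of male wild-type Sprague Dawley rats. All cells were kept in DMEM with 10% fetal bovine serum, and 3 control libraries came from untreated cells and 3 lactate libraries from cells exposed to 10 mM lactate during 8 h. Neither the age of the rats nor whether replicates were separate cultures or animals is stated in the labels. The p-values therefore reflect library-to-library spread that may be technical.

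Most mitochondrial proteins are made in the cytosol and cross the outer membrane through the TOM complex, a pore formed by Tomm40 with receptors and small helper subunits. Small TIM chaperones carry some of them across the intermembrane space, the TIM22 and TIM23 complexes pass them into or through the inner membrane, and a motor built around the matrix chaperone Hspa9 pulls them in before a presequence protease trims them. The MICOS complex forms the crista junctions of the inner membrane and touches the outer membrane at contact sites, and ATP-dependent proteases remove damaged or unneeded proteins. Cells of the nucleus pulposus live with little oxygen and are known for a glycolytic metabolism that releases lactate.

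Libraries held 30291357 to 38989574 counts. Of the markers of the labelled cell type, Tbxt (brachyury) had 4 counts in each control library and 0 in each lactate library. Of the nucleus pulposus and notochord markers 9 were in the table and 7 were tested, with 1 called higher and 3 lower, and their summed level was 294.9 to 368.9 CPM in control and 301.7 to 376.8 in lactate libraries (CPM are counts per 1000000 counts of the library, here with the TMM scaling factors of edgeR). That sum held opposite shifts. Cd24 was called higher, from a mean of 29.2 CPM in control to 145.8 in lactate libraries. Pax1 (234.9 to 128.1), Foxa2 (1.63 to 0.41) and Cdh2 (7.96 to 3.71) were called lower. The 5 cartilage matrix genes summed to 4550 to 4712 CPM in control and 6178 to 7894 in lactate libraries, with Sox9, Comp and Col11a1 called higher, Acan (aggrecan) not called and Col2a1 at 2 to 28 counts. Other cell types were checked the same way. The summed level of 5 fibroblast and annulus fibrosus markers went from 29581 to 35437 CPM in control to 100893 to 145445 in lactate libraries, most of it Col1a1, with 2 markers called higher and 2 lower. The 5 macrophage and leukocyte markers summed to 9.65 to 10.7 CPM in control and 4.19 to 5.40 in lactate libraries. Of the 2 tested, Cd14 was called lower and Cd68 higher. The 6 smooth muscle and pericyte markers summed to 892 to 1115 CPM in control and 886 to 1128 in lactate libraries, with 3 called higher and 2 lower, and the 3 endothelial markers stayed under 1 CPM in all 6, with Kdr at 0 in the control libraries. The part of these shifts in the results below was not tested. In bulk RNA, fewer cells of a type and less RNA per cell cannot be told apart.

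With lactate this machinery moved in both directions. Calls were made where edgeR's quasi-likelihood test gave an adjusted p under 0.05. Of the 44 genes, 21 were called higher with lactate, 5 lower and 18 were not called. Over all genes tested, 66.0% were called, 31.4% higher and 34.6% lower. The median log2 fold change was 0.38 for the 44 and −0.10 for all genes. The 5 lower genes were the pore gene Tomm40 and its paralog Tomm40l, the co-chaperone gene Tomm34, the motor scaffold gene Timm44 and the contact site gene Apool. A change of at least 2-fold was called higher in 9 genes (18.1% of all genes tested) and lower in 3 (22.5% of all). In 22 genes every lactate library lay above every control library, and in 5 every one lay below, where all genes tested gave 33.7% and 38.4% (72.2% together). Clpp was the 1 gene of the 44 whose groups were apart without a call.

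The directions of the group as a whole rested on the scaling. The TMM factors of control libraries were 1.33 to 1.36, and those of lactate libraries 0.70 to 0.81. The 44 genes together took 0.172 to 0.190% of all counts in control and 0.132 to 0.145% in lactate libraries. With library totals in place of TMM factors, 6 genes were higher and 23 lower, with a median of −0.49, against 12.5% higher and 61.8% lower and a median of −0.96 over all genes. Of the 21 genes called higher with TMM factors, 13 were then not called and 2, Clpx and Afg3l2, were called lower. Over all genes tested higher calls were lost too. With TMM factors 4319 genes were called higher, and 1722 were called higher with TMM, RLE and upper-quartile factors and library totals alike. Removing the trend of fold change on transcript length left 16 higher and 8 lower with a median of 0.077 (all genes 33.5% and 30.5%), and removing the trends on length and level left 10 higher and 12 lower with a median of −0.0035 (all genes 30.7% and 29.5%). Under all 13 settings tried with the 6 libraries, 4 genes were called higher (Chchd10, Timm29, Grpel1 and Timm13) and 5 lower (Tomm40l, Tomm34, Tomm40, Timm44 and Apool), where 10.5% and 21.6% of all genes were. These 9 genes also kept their call when any single library was left out. That did not set them apart, since 17 of the 44 genes stayed higher and 5 lower in every such fit. The share of all genes that did so was not counted.

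**Figure D1:**
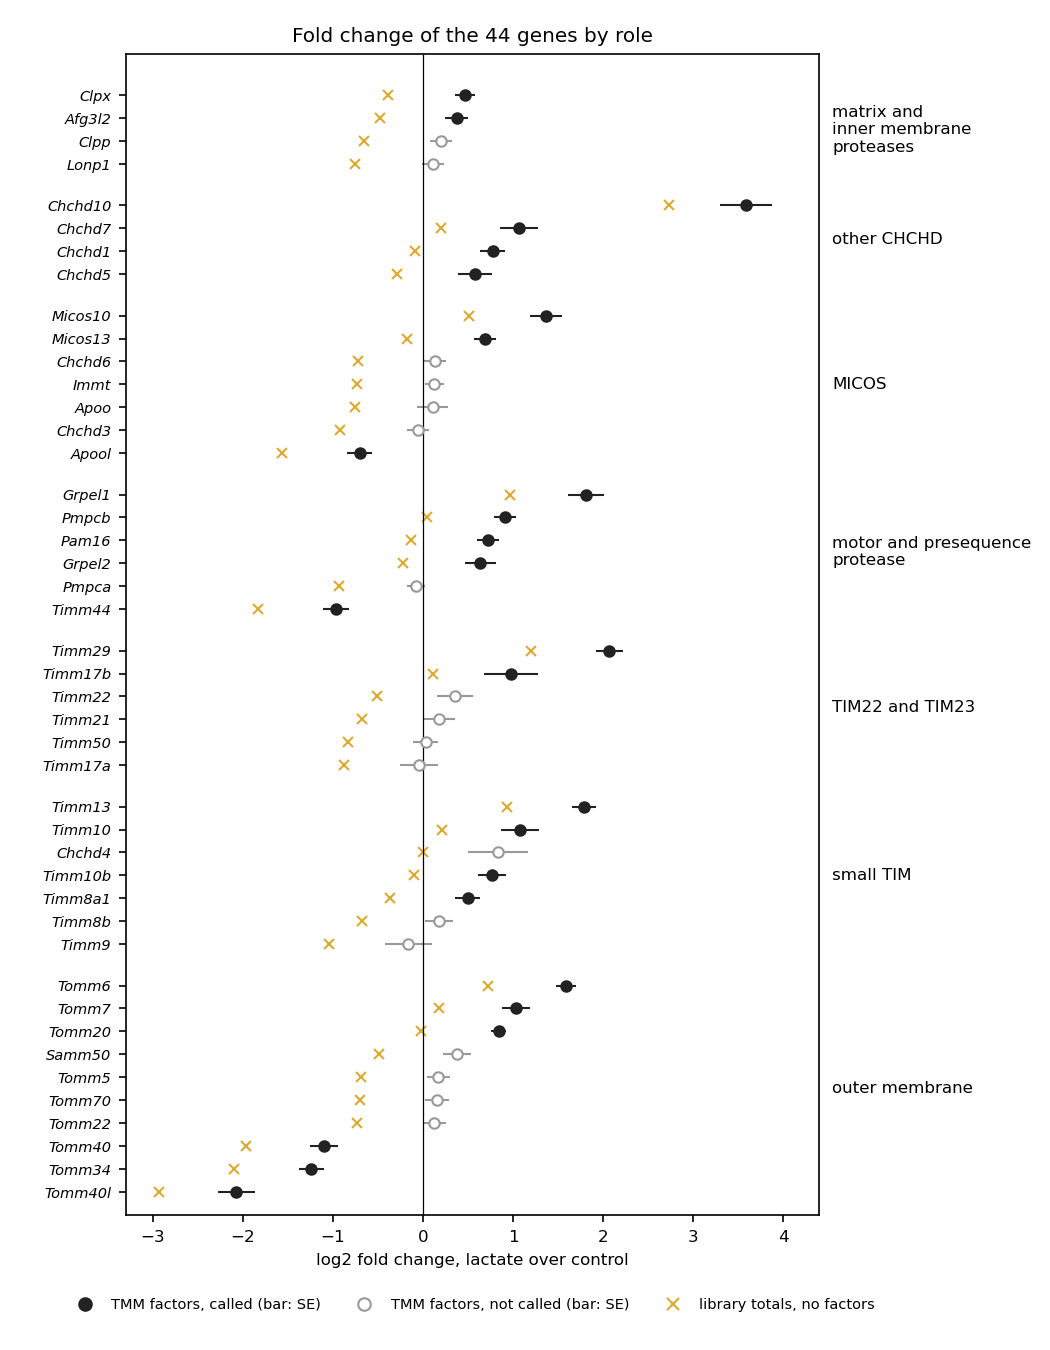
Log2 fold change of lactate over control for each of the 44 genes, grouped by role. Circles are values with TMM factors (filled where called, bars are standard errors) and crosses are values with library totals. Chchd10 lies farthest to the right at 3.59 and Tomm40l farthest to the left at −2.07, and each cross lies to the left of its circle.

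In control libraries, where FPKM (which divide counts by the length of the transcript and by the library's total) allow genes to be set side by side, the receptor gene Tomm20 stood highest at 175 FPKM, followed by Lonp1 at 111, Tomm6 at 100.4 and Micos10 at 95.8. Chchd10 stood lowest at 0.615 FPKM, below Grpel2 at 4.56 and Timm10 at 4.65. The pore gene Tomm40 (49.9 FPKM) was near the receptor gene Tomm22 (51.0 FPKM), while its paralog Tomm40l was at 8.94. The other genes lay between 4.65 and 58.6 FPKM.

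The 44 genes are short. Their median transcript length, taken from the ratio of counts to FPKM, was 0.496 of that of the median gene tested, and 39 of 44 were shorter than it. Fold changes followed length across the transcriptome. When all genes tested were cut into 5 equal groups by length, 44.4% were called higher and 17.9% lower in the group with the shortest transcripts, with a median log2 fold change of 0.46. In the group with the longest transcripts 21.8% were higher and 49.5% lower, with a median of −0.52. Of the 44 genes 25 were in length group 1, the shortest, with 14 higher and 1 (Tomm40) lower. Length group 2 held 12, with 3 higher and 4 lower (34.6% and 28.3% of all genes there). Length group 3 held 3, with Clpx (0.46) higher (28.9% higher and 36.7% lower of all there), and length group 4 held 4, with Timm29 (2.07), Grpel2 (0.64) and Afg3l2 (0.38) higher (27.4% and 40.6% of all there). Length group 5 held 0 of them.

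Fold changes also followed level. By mean log2 CPM over all libraries, the 44 genes lay above the weakest expressed group of 5, which held 0 of them (14.3% higher and 33.3% lower of all there). Level group 2 held 5, with 3 higher and 1 lower, against 18.9% and 45.2% of all genes there. Level group 3 held 16, with 8 higher and 2 lower, against 26.0% and 42.2%. Level group 4 held 17, with 7 higher and 2 lower, against 38.6% and 32.6%, and level group 5, the strongest expressed, held 6, with 3 higher and 0 lower, against 59.2% and 19.8%.

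**Figure D2:**
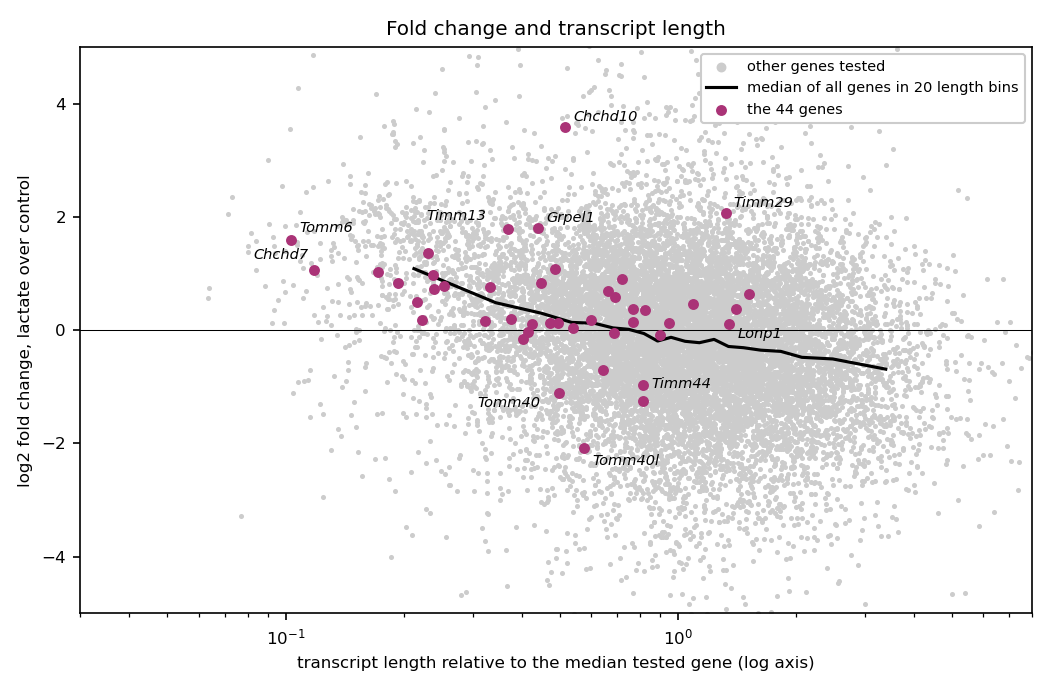
Log2 fold change of lactate over control against transcript length relative to the median gene, on a log axis. Grey points are the other genes tested, the line is the median of all genes in 20 length bins, and 131 genes lie outside the plotted range. The line falls from left to right, Chchd10, Timm29, Grpel1 and Timm13 lie above it, and Tomm40, Tomm40l and Timm44 below it.

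Promoters were searched for 2 motifs on both strands. One is GCGC, then any 2 bases, then GCGC again, a palindrome that matches the site of NRF1, a transcription factor known for driving nuclear genes of mitochondria. The other is TGATGNAAN, which matches the element bound by C/EBP and ATF factors in stress responses. RefSeq's table for the rat assembly GRCr8 gave a promoter of 300 bases, 250 before and 50 after the start, for 38 of the 44 genes. No entry was found for Timm29, Chchd7, Tomm34, Clpx, Lonp1 and Immt. Of the 13747 genes tested, 9397 entered the promoter counts, and shares of tested promoters below are over these. The NRF1 motif was in 7 of the 38 (18.4%), in 13.5% of the 9397 and in 6.15% of all promoters in the table. These 7 were Grpel1, Tomm20, Tomm7, Pam16, Grpel2, Chchd4 and Timm21. With TMM factors 5 of them were called higher, and Chchd4 and Timm21 were not called, while of the 31 promoters without the motif 13 belonged to genes called higher and 4 to genes called lower. Over those of the 9397 genes that hold the motif, 33.6% were higher and 36.4% lower. The C/EBP-ATF motif was in Timm22 and Tomm40l (5.26% of the 38, against 1.98% of tested and 3.80% of all promoters). With TMM factors Timm22 was not called (0.36) and Tomm40l was called lower. Over the tested genes that hold this motif, 29.6% were higher and 30.1% lower. A match describes letters and is not a binding site. The following stretches, from upstream of the start and read towards the gene, hold the motif in capitals. They are shown for the 5 NRF1 motif genes with the largest fold changes, to set a shared motif beside values that differ, and for Tomm40l, the gene that fell most, with the C/EBP-ATF motif.
Grpel1, chr14:78522869-78522948, minus strand: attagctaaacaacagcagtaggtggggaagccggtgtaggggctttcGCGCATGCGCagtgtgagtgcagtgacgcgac
Tomm7, chr4:12197423-12197502, plus strand: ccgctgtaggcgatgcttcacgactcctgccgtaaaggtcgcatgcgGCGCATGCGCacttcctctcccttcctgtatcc
Tomm20, chr19:71832480-71832559, minus strand: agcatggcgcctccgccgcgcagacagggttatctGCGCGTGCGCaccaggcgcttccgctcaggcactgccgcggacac
Chchd4, chr4:125534709-125534788, minus strand: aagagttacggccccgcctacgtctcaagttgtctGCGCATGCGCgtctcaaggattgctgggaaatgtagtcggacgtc
Pam16, chr10:11449412-11449491, plus strand: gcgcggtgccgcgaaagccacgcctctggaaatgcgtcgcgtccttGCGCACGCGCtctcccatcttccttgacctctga
Tomm40l, chr13:86174185-86174264, minus strand: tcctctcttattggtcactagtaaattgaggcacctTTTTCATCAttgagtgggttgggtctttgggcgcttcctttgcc
The motif began 32 bases before the start in Grpel1, 33 in Tomm7 and 34 in Pam16, and 104 in Tomm20. Coordinates are those of the RefSeq table and not of the authors' alignment.

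At the outer membrane the pore genes fell, while a receptor gene and 2 small subunit genes rose with TMM factors. Of 10 genes, Tomm6, Tomm7 and Tomm20 were higher, Tomm40l, Tomm34 and Tomm40 lower and 4 not called, with a median of 0.16 (−0.69 with library totals, and 1 higher and 7 lower). For this and each role group that follows, the shares over all genes tested are 31.4% higher and 34.6% lower with TMM factors. Counts with library totals are to be set beside 12.5% higher and 61.8% lower, with a median of −0.96. Tomm40, the channel through which nearly all imported proteins pass, was at 48.7, 35.0 and 40.1 CPM in control and 19.5, 21.5 and 16.7 CPM in lactate libraries. The groups did not overlap, and its log2 fold change was −1.10 ± 0.16 (SE; edgeR adjusted p = 0.00031). Tomm40l, a second form of that channel, was at 9.17, 8.95 and 7.68 CPM in control and 1.72, 2.26 and 2.13 in lactate libraries. It fell by 2.07 ± 0.20 on the log2 scale (edgeR adjusted p = 3.6e-05), the deepest fall among the 44. Tomm34, a cytosolic co-chaperone that binds proteins on their way to import, was at 21.7, 26.1 and 27.2 CPM in control and 10.1, 11.2 and 10.4 in lactate libraries and fell by 1.24 ± 0.14 (edgeR adjusted p = 7.7e-05).

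Tomm20, the receptor for presequences, was at 136, 124 and 133 CPM in control and 235, 235 and 232 CPM in lactate libraries. All 3 lactate libraries were higher, by 0.84 ± 0.09 on the log2 scale with TMM factors (edgeR adjusted p = 4.4e-05), but with library totals the value was −0.019 without a call. With the length trend alone removed Tomm20 stayed called higher at 0.58, and with length and level trends removed it was at −0.19 without a call. Tomm6, a small helper subunit of the pore, was at 19.0, 15.9 and 16.8 CPM in control and 52.7, 51.2 and 51.0 CPM in lactate libraries (1.59 ± 0.11, edgeR adjusted p = 6.7e-06). It stayed called with library totals at 0.72, but lost its call at 0.15 once the length trend was taken out, and its transcript is the shortest of the 44 at 0.103 of the median gene. Tomm7, another small subunit, was called higher at 1.03 (edgeR adjusted p = 0.00041), and lost its call at −0.04 once the length trend was taken out. Tomm70, the receptor for carrier precursors, was at 37.0, 44.3 and 40.7 CPM in control and 43.99, 39.4 and 52.2 CPM in lactate libraries, which overlap (0.15 ± 0.13, edgeR adjusted p = 0.34). The receptor gene Tomm22 (0.12) and the small subunit gene Tomm5 (0.17) were not called either with TMM factors. With length and level trends removed both were called lower, Tomm22 at −0.43 and Tomm5 at −0.50, and Tomm5 also with the length trend alone removed (−0.42). Samm50, which inserts barrel proteins into the outer membrane, had 0.37 without a call (edgeR adjusted p = 0.058), and was called higher at 0.54 without control replicate 1, at 0.48 without lactate replicate 3, at 0.42 with RLE factors or DESeq2, at 0.38 with limma-voom and at 0.41 with the length trend removed. With library totals it was called lower at −0.49.

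**Figure D3:**
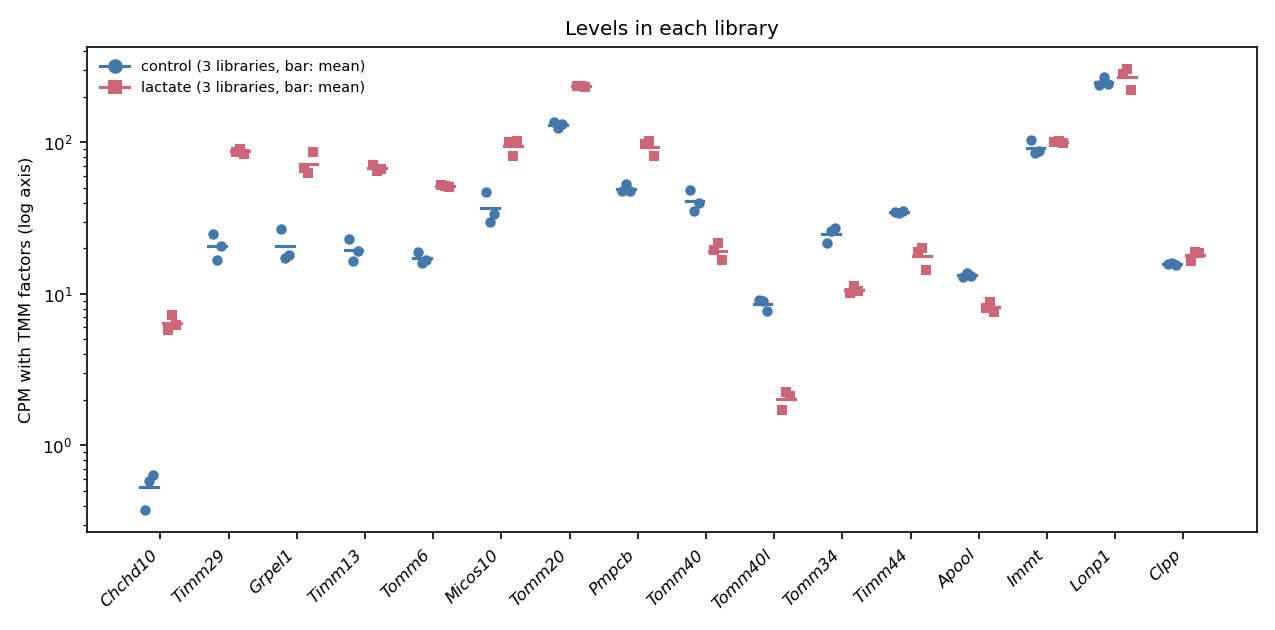
CPM with TMM factors (log axis) in each control (circle) and lactate (square) library for 16 of the genes, with bars at the group means. The lactate squares lie above the control circles from Chchd10 to Pmpcb, below them from Tomm40 to Apool, overlap them for Immt and Lonp1, and lie just above them for Clpp.

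Among the small TIM chaperones of the intermembrane space, counted together with Chchd4, which folds them, 4 of 7 genes were higher and 0 lower, with a median of 0.77 (−0.10 with library totals, and 1 higher and 2 lower). With the length trend removed 2 were higher and 2 lower, with a median of −0.15, against 33.5% and 30.5% of all genes. Timm13, which escorts precursors of the inner membrane, was at 22.9, 16.5 and 19.3 CPM in control and 70.8, 65.1 and 67.2 CPM in lactate libraries, and rose by 1.79 ± 0.14 (edgeR adjusted p = 9.8e-06). Its partner in one chaperone ring, Timm8a1, was at 0.50 (edgeR adjusted p = 0.012, but 0.053 without control replicate 3), and its value turned to −0.42, called lower, with the length trend removed. Timm8b, at 0.18, was not called with TMM factors. It was called lower with library totals (−0.68), with the length trend removed (−0.71) and with length and level trends removed (−0.61). Timm10, which forms the main ring with Timm9, was at 4.64, 3.27 and 3.35 CPM in control and 7.30, 9.08 and 7.38 CPM in lactate libraries (1.08 ± 0.21, edgeR adjusted p = 0.0021). With library totals its value was 0.21 without a call. Timm9 itself was spread widely among the lactate libraries, at 9.03, 12.8 and 5.98 CPM, against 10.7, 9.13 and 11.3 in control (−0.16, edgeR adjusted p = 0.60). Timm10b, a peripheral subunit of the carrier translocase, was at 10.1, 9.24 and 8.72 CPM in control and 16.1, 18.1 and 13.6 CPM in lactate libraries (0.77 ± 0.16, edgeR adjusted p = 0.0023; −0.10 with library totals and 0.21 without the length trend, neither called). Chchd4, the oxidoreductase that folds the small TIM proteins by forming disulfide bonds, had low levels of 1.95, 1.88 and 1.36 CPM in control and 3.40, 1.83 and 3.98 CPM in lactate libraries. Its lactate replicate 2 lay inside the control range, and it was not called (0.83 ± 0.34, edgeR adjusted p = 0.055), but it was called without that library (1.10, edgeR adjusted p = 0.011) and, with all 6 libraries, with RLE factors (0.87, edgeR adjusted p = 0.045) and by DESeq2 (0.88, adjusted p = 0.028).

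Among the inner membrane translocases 2 of 6 genes rose with TMM factors, 0 fell and 4 had no call, a higher share close to that of all genes, with a median of 0.27 (−0.59 with library totals, and 1 higher and 3 lower). Timm29, a subunit of the TIM22 complex that inserts carrier proteins, was at 24.8, 16.9 and 20.8 CPM in control and 86.3, 90.9 and 84.4 CPM in lactate libraries. It rose by 2.07 ± 0.15 (edgeR adjusted p = 7.4e-06), and by 1.20 with library totals and 1.99 with length and level trends removed. The channel subunit Timm22 of the same complex had 0.36 without a call (edgeR adjusted p = 0.14), with control replicate 1 at 23.9 CPM inside the lactate range. Without that library it was called at 0.59. Of the TIM23 complex, Timm50, the receptor that takes over presequences from the outer membrane, was at 33.0, 34.6 and 32.2 CPM in control and 40.8, 30.2 and 31.1 CPM in lactate libraries (0.03 ± 0.14, edgeR adjusted p = 0.85). Timm17b, the B form of a channel subunit that also comes in an A form, was at 6.74, 9.75 and 11.6 CPM in control and 27.0, 15.3 and 13.1 CPM in lactate libraries (0.98 ± 0.30, edgeR adjusted p = 0.019). That call was lost without lactate replicate 1, its highest library (edgeR adjusted p = 0.063), and without control replicate 1 (0.074). It was also lost with library totals (0.11), with the length trend removed (0.11) and with length and level trends removed (0.25). The A form, Timm17a, was at −0.04.

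In the import motor and the presequence protease, 4 of 6 genes were higher and 1 lower, with a median of 0.68 (−0.18 with library totals, and 1 higher and 2 lower). Grpel1, the nucleotide exchange factor that resets the motor chaperone, was at 26.6, 17.1 and 17.99 CPM in control and 67.8, 63.0 and 85.9 CPM in lactate libraries. It rose by 1.81 ± 0.20 (edgeR adjusted p = 6.5e-05), and by 0.96 with library totals. Timm44, the scaffold that ties the motor to the TIM23 channel, moved the other way, from 34.7, 34.3 and 35.2 CPM in control to 19.0, 19.9 and 14.5 CPM in lactate libraries (−0.96 ± 0.14, edgeR adjusted p = 0.00038). Pmpcb, the catalytic subunit of the presequence protease, was at 47.7, 53.3 and 47.9 CPM in control and 97.4, 102 and 80.8 CPM in lactate libraries (0.91 ± 0.12, edgeR adjusted p = 0.00019), and with library totals it was at 0.04, without a call. Pmpca, with which it forms the enzyme, was at −0.08 (edgeR adjusted p = 0.53). Pmpca was called lower with library totals (−0.94) and with length and level trends removed (−0.31). The second exchange factor Grpel2 (0.64) and the motor regulator Pam16 (0.72) were called higher with TMM factors, and with library totals they stood at −0.22 and −0.14 without a call. Pam16 was at −0.12 with the length trend removed.

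Of the 7 MICOS genes 2 rose, a share close to that of all genes, 1 fell and 4 had no call, with a median of 0.13 (−0.74 with library totals, and 1 higher and 5 lower). Micos10, the small subunit that bends the membrane at crista junctions, was at 46.8, 29.9 and 33.8 CPM in control and 100.3, 82.0 and 102.8 CPM in lactate libraries (1.37 ± 0.18, edgeR adjusted p = 0.00018). It stayed called with library totals at 0.51, and lost its call at 0.07 once length and level trends were taken out. Micos13 was at 30.3, 25.7 and 26.4 CPM in control and 39.5, 46.7 and 46.4 CPM in lactate libraries (0.69 ± 0.12, edgeR adjusted p = 0.0010; −0.17 without a call with library totals). Immt, the large scaffold of the complex, was at 103.8, 85.6 and 87.2 CPM in control and 100.2, 103.0 and 98.5 CPM in lactate libraries, which overlap (0.13 ± 0.11, edgeR adjusted p = 0.33), and Chchd3, which links it to the outer membrane, was at 43.0, 47.0 and 47.4 CPM in control and 45.6, 49.2 and 37.7 CPM in lactate libraries (−0.05 ± 0.12, edgeR adjusted p = 0.72). Apool was at 13.02, 13.8 and 13.2 CPM in control and 8.07, 8.89 and 7.58 CPM in lactate libraries, and fell by 0.70 ± 0.14 (edgeR adjusted p = 0.0020). Its relative Apoo, at 0.11, and Chchd6, at 0.13, were not called. Immt was called higher with the length trend removed (0.28) and lower with length and level trends removed (−0.31). Chchd3 was also called lower with length and level trends removed (−0.45).

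The 4 other Chchd genes were all called higher with TMM factors, with a median of 0.92 (0.05 with library totals, where 1 was called). Chchd10, a protein of the intermembrane space that is mutated in some inherited nerve and muscle diseases, had the lowest level of the 44 in control libraries, with 17, 30 and 30 counts or 0.372, 0.581 and 0.636 CPM. In lactate libraries it had 128, 155 and 177 counts or 5.81, 7.29 and 6.19 CPM. Its rise of 3.59 ± 0.28 (edgeR adjusted p = 1.2e-05) was the steepest among the 44 and stayed at 2.73 with library totals, 3.42 with the length trend removed and 3.96 with length and level trends removed. Chchd1, a protein of the mitochondrial ribosome, was at 12.5, 11.5 and 13.3 CPM in control and 20.8, 23.8 and 19.3 CPM in lactate libraries (0.77 ± 0.14, edgeR adjusted p = 0.0011), and Chchd7 was at 2.95, 3.22 and 3.10 CPM in control and 7.85, 6.26 and 5.31 CPM in lactate libraries (1.06 ± 0.21, edgeR adjusted p = 0.0021). With the length trend removed Chchd1 was at −0.03 and Chchd7 at −0.29, neither called, and with library totals neither was called. Chchd5, at 0.58 (edgeR adjusted p = 0.024), lost its call without control replicate 2 (0.090), control replicate 3 (0.074), lactate replicate 1 (0.057) or lactate replicate 2 (0.057).

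Of the 4 protease genes, Clpx and Afg3l2 rose with TMM factors and 0 fell, with a median of 0.29 (−0.57 with library totals). Lonp1, the main soluble protease of the matrix, was at 239, 269 and 244 CPM in control and 284, 305 and 224 CPM in lactate libraries (0.11 ± 0.13, edgeR adjusted p = 0.45), and was called at 0.26 without lactate replicate 3, its lowest library. Clpx, the unfoldase of the other soluble protease, was at 35.1, 32.2 and 30.9 CPM in control and 42.1, 43.8 and 49.4 CPM in lactate libraries (0.46 ± 0.11, edgeR adjusted p = 0.0054). Clpp, the peptidase it feeds, was at 15.7, 16.1 and 15.5 CPM in control and 16.6, 19.1 and 18.6 CPM in lactate libraries, higher in all 3 but not called (0.20 ± 0.12, edgeR adjusted p = 0.19). Afg3l2, of the inner membrane, was at 42.4, 38.4 and 42.5 CPM in control and 57.0, 44.97 and 57.9 CPM in lactate libraries (0.38 ± 0.13, edgeR adjusted p = 0.027). Its call was lost without control replicate 1 (0.050), control replicate 2 (0.10), control replicate 3 (0.062) or lactate replicate 1 (0.087). With library totals all 4 were called lower, from −0.39 for Clpx to −0.76 for Lonp1, and with length and level trends removed Clpx was at 0.35 and called higher. Lonp1 was called higher with the length trend alone removed (0.38) and lower with length and level trends removed (−0.50).

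Ratios of counts between genes whose products work together do not depend on the scaling of the libraries, although differences in length can still move them. They are given as a description for 12 pairs, chosen after their values were seen. The groups did not overlap in any of them, a count that the choice of pairs can set, and among single genes 72.2% had groups apart. Counts of Tomm20 per count of Tomm40 were 2.79, 3.54 and 3.31 in control and 12.1, 10.9 and 13.9 in lactate libraries. Counts of Grpel1 per count of Timm44 went from 0.593 ± 0.151 to 4.22 ± 1.501 (SD, n = 3), which was the widest shift of the 12. For Timm29 per Timm22 they went from 1.16 ± 0.108 to 3.75 ± 0.254 (SD, n = 3). Pmpcb and Pmpca, the paired subunits of a single enzyme, stood at 1.02, 1.11 and 0.947 counts of Pmpcb per count of Pmpca in control and at 1.97, 2.29 and 1.84 in lactate libraries. The ring partners Timm10 and Timm9 went from 0.363 ± 0.0676 to 0.917 ± 0.279 (SD, n = 3), and Timm13 and Timm8a1 from 2.47 ± 0.333 to 6.08 ± 0.601. Micos10 per Immt rose from 0.396 ± 0.0511 to 0.947 ± 0.132 (SD, n = 3) and Apool per Apoo fell from 1.76 ± 0.179 to 0.999 ± 0.0704. Clpx per Clpp shifted least, from 2.08 ± 0.139 to 2.50 ± 0.183 (SD, n = 3).

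**Figure D4:**
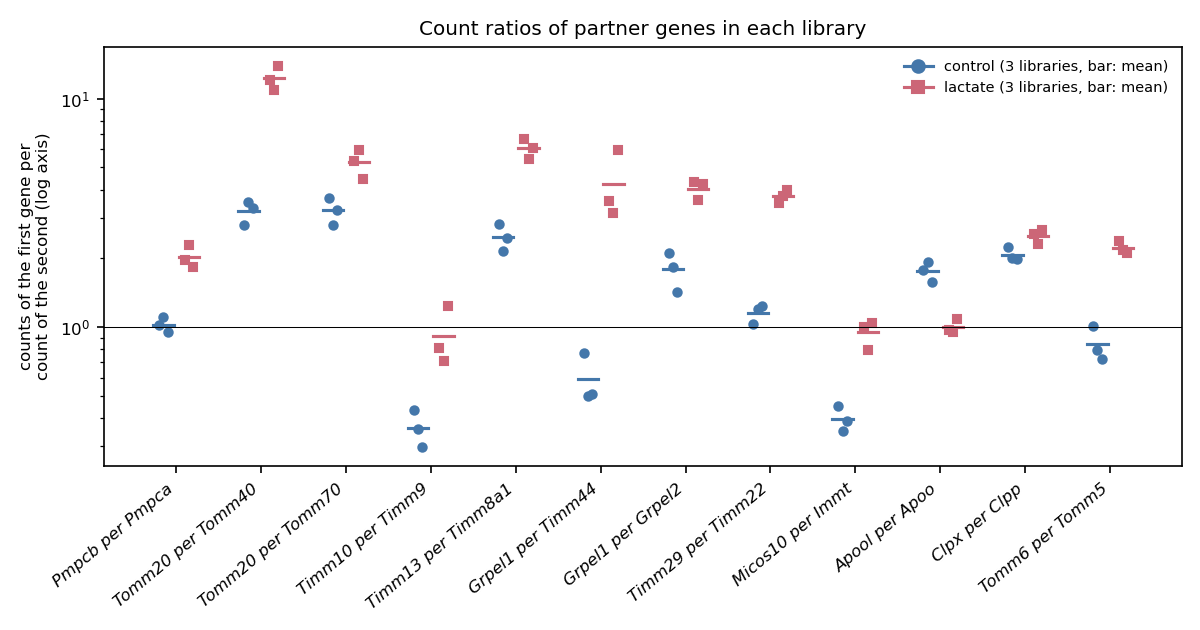
Counts of a gene per count of a partner gene (log axis) in each control (circle) and lactate (square) library, with bars at the group means, for 12 pairs. Lactate squares lie above the control circles in every pair but Apool per Apoo, where they lie below, and the gap is widest for Grpel1 per Timm44.

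Genes of the same pathway that the name rule leaves out were taken from a list of chaperones, import factors and proteases. Of 36 such genes, 35 were tested, and 20 were called higher, 5 lower and 10 were not called (31.4% and 34.6% over all genes), with a median of 0.42. With library totals 3 were higher (Hspd1, Hspe1 and Hsp90aa1) and 19 lower, with a median of −0.43. Over all genes tested that scaling gave 12.5% higher and 61.8% lower, with a median of −0.96. Oma1, an inner membrane protease that responds to stress, was at 5.56, 4.92 and 6.30 CPM in control and 0.544, 0.753 and 0.629 CPM in lactate libraries and fell by 3.12 ± 0.26 (edgeR adjusted p = 1.4e-05). Dnajc11, which binds MICOS and Samm50, fell by 2.29 ± 0.15 (edgeR adjusted p = 4.5e-06). Dnaja3, a partner of the matrix chaperone, fell by 1.71 ± 0.12 (edgeR adjusted p = 5.9e-06). These 3 stayed lower with library totals and with length and level trends removed. The other genes called lower were Phb (−0.82) and Agk (−0.56), and Agk lost its call with length and level trends removed (−0.27).

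The matrix chaperone Hspa9 itself, the core of the import motor, was at 392, 403 and 369 CPM in control and 559, 561 and 661 CPM in lactate libraries (0.61 ± 0.10, edgeR adjusted p = 0.00061), and with library totals it was at −0.24, without a call. The chaperonin gene Hspd1, of the cage in which imported proteins fold, was at 282, 249 and 273 CPM in control and 617, 557 and 563 CPM in lactate libraries (1.11 ± 0.09, edgeR adjusted p = 1.4e-05), without a call in limma on log2 FPKM (0.24), and its lid Hspe1 was at 1.26 ± 0.13 (edgeR adjusted p = 5.0e-05; −0.06 with the length trend removed). Gfer, which recharges the oxidoreductase Chchd4, rose by 1.21 ± 0.14 (edgeR adjusted p = 0.00010; 0.36 without a call with library totals). The cytosolic chaperone Hsp90aa1, which hands precursors to Tomm70, rose by 1.54 ± 0.10 (edgeR adjusted p = 4.0e-06). Spg7, which works with Afg3l2 in the same inner membrane protease, was at −0.12 (edgeR adjusted p = 0.46). The protease gene Yme1l1 was not tested: it had 1858 counts in control replicate 3 and 0 in the other 5 libraries.

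In the authors' deposited table, with their own test, 18 of the 44 genes were higher and 5 lower at an FDR under 0.05, against 23.6% and 28.0% of the 17273 genes. The sign in the authors' deposited table was the same as here for all 26 called genes. Both rest on the same counts, so this is no independent support for the directions. The authors' values lay close to those of the fit here without a filter, at 2.03108 and 2.03103 for Timm29 and −1.00073 and −1.00033 for Timm44. Near-identical copies could take or give reads in the authors' counting. RefSeq names at least 1 pseudogene after 12 of the 44, among them Tomm20, Tomm7, Micos10, Apool, Pmpcb, Timm8a1 and Chchd4, and the values of these genes are uncertain to that extent.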

How the data were processed

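The deposited files hold raw counts and FPKM of each gene per library, and the authors' own comparison as log2 fold changes and p-values, per the file headers. Aligner, counting tool, annotation and strand setting: not given in the sources used here. Per the submitters' processing notes the builds were GRCm38 and mm10, which are mouse builds, while the gene names are rat, so the genome used was not settled. A table of genes selected by the authors was not used.

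The counts went into edgeR 4.0.16 (quasi-likelihood test, R 4.3.3) with TMM factors, filterByExpr and a design of group alone, adjusted by Benjamini-Hochberg over the 13747 genes tested. Fold changes compare lactate with control. Their standard errors were derived from the edgeR test, as the absolute log2 fold change divided by the square root of the F statistic. Scripts were tested on simulated data. The alternatives were other factors (RLE, upper quartile, none), 2 other filters, DESeq2 1.42.0, limma 3.58.1 (voom, and trend on log2 FPKM with a pseudocount of 1 or 0.1), lowess trends on relative length and mean log2 CPM taken out per library through the offsets, a replicate block and each library left out. A count of 0 allows up to 3 counts, or 0.0581 to 0.141 CPM, for counting error only.

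The genes, lists, tests and the rule for naming genes were chosen with earlier results of these data known. By that rule values in every library were given for up to 3 called genes with the largest change in each role group, called genes against their group's direction, and 12 set genes, of which Timm23 was not analysed here. From the pathway list it took the 6 called genes with the largest change and 4 set genes. Values of Timm9, Phb and Agk were added after they were seen.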

Additional observations from a re-analysis of the deposited data

How the results depend on the processing

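Chchd10, Timm29, Grpel1 and Timm13 stayed called higher, and Tomm40l, Tomm34, Tomm40, Timm44 and Apool lower, in all alternatives run. Median log2 fold changes are given below in the order outer membrane, small TIM, TIM22 and TIM23, motor and presequence protease, MICOS, other Chchd genes and proteases. Signs that turned are listed for the genes taken by the naming rule, after the number of all 44 that turned.

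With library totals 6 of the 44 genes were higher and 23 lower, and the medians were −0.49 over the 44 and −0.69, −0.10, −0.59, −0.18, −0.74, 0.053 and −0.57 by role. Of the other pathway genes 3 were higher and 19 lower. Signs turned in 24 of the 44, and by the rule for Afg3l2 (−0.48), Chchd1 (−0.092), Chchd4 (−0.0038), Clpp (−0.66), Clpx (−0.39), Immt (−0.74), Lonp1 (−0.76), Micos13 (−0.17), Timm10b (−0.10), Timm50 (−0.83), Tomm20 (−0.019), Tomm70 (−0.69) and Hspa9 (−0.24). With limma on log2(FPKM + 1), also scaled to library totals, 6 were higher and 24 lower, the medians were −0.46, then −0.71, −0.071, −0.52, −0.17, −0.70, 0.035 and −0.56, the other pathway genes had 2 higher and 19 lower, and signs turned in 24 of the 44, by the rule for Afg3l2 (−0.47), Chchd1 (−0.10), Chchd4 (−0.071), Clpp (−0.65), Clpx (−0.38), Immt (−0.76), Lonp1 (−0.76), Micos13 (−0.18), Timm10b (−0.033), Timm50 (−0.82), Tomm20 (−0.0297), Tomm70 (−0.70) and Hspa9 (−0.26). With log2(FPKM + 0.1) the counts were 6 and 24, and 2 and 19, the medians −0.48, then −0.73, −0.10, −0.59, −0.19, −0.75, 0.038 and −0.59, and signs turned in 24 of the 44, by the rule for Afg3l2 (−0.50), Chchd1 (−0.10), Chchd4 (−0.10), Clpp (−0.68), Clpx (−0.41), Immt (−0.78), Lonp1 (−0.77), Micos13 (−0.19), Timm10b (−0.035), Timm50 (−0.85), Tomm20 (−0.0299), Tomm70 (−0.72) and Hspa9 (−0.26). Of all genes tested, 12.96% were higher and 63.72% lower with log2(FPKM + 1), and 12.88% and 63.56% with log2(FPKM + 0.1).

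With the length trend removed 16 were higher and 8 lower, the medians were 0.077, then −0.071, −0.15, 0.11, 0.48, −0.063, 0.26 and 0.51, and signs turned in 14 of the 44, by the rule for Chchd1 (−0.031), Chchd4 (−0.15), Chchd7 (−0.29), Clpp (−0.23), Timm50 (−0.11), Hspe1 (−0.065) and Spg7 (0.30). With length and level trends removed 10 were higher and 12 lower, the medians were −0.0035, then −0.31, 0.36, 0.32, 0.20, −0.042, 0.53 and 0.035, the other pathway genes had 10 higher, and signs turned in 14 of the 44, by the rule for Clpp (−0.21), Immt (−0.31), Lonp1 (−0.50), Timm50 (−0.35), Tomm20 (−0.19), Tomm6 (−0.045), Tomm70 (−0.15), Hspa9 (−0.17), Hspe1 (−0.18) and Spg7 (0.042). Upper-quartile factors gave medians of 0.22, then 0.0031, 0.61, 0.11, 0.52, −0.031, 0.76 and 0.13, with 7 of the 44 turned, by the rule Immt (−0.031), Lonp1 (−0.0404), Timm50 (−0.12) and Tomm70 (−0.0068). RLE factors and DESeq2 gave medians of 0.42 over the 44 and 0.72 for the motor group. Without a filter the motor group was at 0.64 and Timm50 at −0.0054. The cause of these moves was not tested.

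Leaving out each library gave 8026 to 9407 genes called, 18 to 23 of the 44 higher and 5 lower, a median of 0.32 to 0.52, and medians of 0.15 to 0.39 for TIM22 and TIM23, 0.62 to 0.72 for the motor group and 0.63 to 0.82 for the small TIM group. Of all genes tested in these fits, 28.15% to 31.98% were higher and 29.4% to 35.03% lower. Timm50 ran from −0.11 without lactate replicate 1 to 0.12, Chchd3 from −0.13 to 0.077 without lactate replicate 3 and Spg7 from −0.21 to 0.0097 without lactate replicate 3. Timm17b lost its call without control or lactate replicate 1. The replicate block gave 22 higher and 5 lower with a median of 0.39, and Samm50 was called higher with it (0.39, edgeR adjusted p = 0.025). With that block 30.48% of all genes tested were higher and 33.64% lower. Same-numbered libraries deviated together with correlations of 0.0078, 0.038 and 0.084, so the numbers were not taken as pairs. Low counts limit Chchd10 in control libraries and Chchd4.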
